A study of Mus musculus with 10 samples.

Results

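The high mobility group genes described here were Hmgb1, Hmgb2, Hmgb3, Hmgn1, Hmgn2, Hmgn3, Hmgn5 and Hmg20b, all of which encode abundant or complex-bound proteins that shape chromatin. They were chosen by name as the HMGB and HMGN parent genes and Hmg20b, leaving out pseudogene rows, and made up 8 of the 43629 gene identifiers in the count tables. Total RNA was sequenced from dorsal telencephalon, the embryonic tissue that forms the cerebral cortex, of C57BL/6 mice at E14.5. The 5 controls had no Cre allele and carried Dot1l-cKO f/+, and the 5 Dot1l-cKO samples had 1 Cre knock-in allele and carried Dot1l-cKO f/f. All samples therefore carried a floxed Dot1l allele (Dot1l encodes an enzyme that methylates histone H3). Since no control carried the Cre allele, loss of Dot1l and the presence of that allele cannot be told apart between these groups. The comparison asks how the transcripts of these chromatin proteins differed when Dot1l was deleted.

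HMGB proteins hold a pair of HMG boxes, domains that bind the minor groove of DNA with little regard to sequence and bend it. They loosen nucleosomes and help transcription factors and remodelling enzymes to bind. HMGN proteins lack the box and bind nucleosomes directly, where they counter compaction by linker histone H1. HMG20B, also known as BRAF35, has a single HMG box and is a subunit of the LSD1-CoREST complex, which removes methyl and acetyl groups from histones at neuronal genes. In the embryonic brain, HMGB and HMGN transcripts are known to be plentiful in dividing progenitors and to decline as neurons mature.

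Total counts were between 54202349 and 66556034 per sample. Gene-level Dot1l counts, which sum all exons and not only the deleted part, were 37.3 ± 4.04 CPM (counts scaled to a common library total of 1000000; SD, n = 5) in controls and 39.4 ± 11.7 in Dot1l-cKO, with 20.1 in Dot1l-cKO replicate 2 and at least 39.6 in the other Dot1l-cKO samples. This sum does not check the deletion. The column headers of the normalised tables carried the number 57 in replicates 2 and 3 of both groups and 3 further numbers in replicates 1, 4 and 5, the same for both samples of a replicate number, and what these numbers stand for is not given in the sources used here. In the 4 samples of number 57 mitochondrial ribosomal RNA took 0.0471 to 0.492% of the counts, and in the other 6 samples 5.79 to 10.9%, so differences are also given within these 2 sets of samples, the second of which mixes 3 header numbers. A fit with the header number as a block used all 4 numbers. The 5 dorsal telencephalon markers read here were all detected, at a summed 897 to 1048 CPM in controls and 954 to 1066 in Dot1l-cKO.

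The start regions of the genes are shown first for the 3 HMGB genes and Hmgn2. Hmgn2 and Hmgb3 are the members called under some settings below, and Hmgb1 and Hmgb2 belong to the family of Hmgb3. The windows were searched for a pair of motifs common at genes of dividing cells, since the members are later read beside G2/M genes. They come from RefSeq (GRCm38.p6), which gave 10 windows for 7 of the 8 members and none for Hmgn3, and span 250 bases before to 50 bases after an annotated start. Capitals mark CCAAT and TTTGAA on either strand, the letters of the CCAAT box and of the cell cycle homology region. The 2 motifs did not overlap in these windows. Hmgb2 had 4 CCAAT and 2 TTTGAA matches (chr8:57511593-57511892, plus strand), Hmgb3 had 3 and 1 (chrX:71555667-71555966, plus strand), Hmgb1 had 3 and 0 (chr5:149053008-149053307, minus strand), and Hmgn2 had 1 and 0 (chr4:133967942-133968241, minus strand).

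Hmgb2: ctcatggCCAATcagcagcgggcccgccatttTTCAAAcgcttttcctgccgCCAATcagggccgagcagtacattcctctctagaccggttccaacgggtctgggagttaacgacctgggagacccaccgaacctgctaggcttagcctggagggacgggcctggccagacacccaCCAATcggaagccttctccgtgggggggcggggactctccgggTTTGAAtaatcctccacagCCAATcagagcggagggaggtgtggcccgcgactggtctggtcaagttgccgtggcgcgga

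Hmgb3: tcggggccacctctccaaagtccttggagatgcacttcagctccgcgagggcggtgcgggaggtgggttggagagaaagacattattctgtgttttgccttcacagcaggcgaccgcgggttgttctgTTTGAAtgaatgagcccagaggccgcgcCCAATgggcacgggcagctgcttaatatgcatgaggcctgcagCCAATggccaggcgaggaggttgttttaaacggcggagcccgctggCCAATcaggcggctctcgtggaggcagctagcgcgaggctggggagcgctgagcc

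Hmgb1: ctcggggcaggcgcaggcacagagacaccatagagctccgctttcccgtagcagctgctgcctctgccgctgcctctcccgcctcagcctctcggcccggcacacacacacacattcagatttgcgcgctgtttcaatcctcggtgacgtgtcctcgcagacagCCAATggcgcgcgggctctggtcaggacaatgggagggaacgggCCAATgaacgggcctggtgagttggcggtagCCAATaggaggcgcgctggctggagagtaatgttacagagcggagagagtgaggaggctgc

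Hmgn2: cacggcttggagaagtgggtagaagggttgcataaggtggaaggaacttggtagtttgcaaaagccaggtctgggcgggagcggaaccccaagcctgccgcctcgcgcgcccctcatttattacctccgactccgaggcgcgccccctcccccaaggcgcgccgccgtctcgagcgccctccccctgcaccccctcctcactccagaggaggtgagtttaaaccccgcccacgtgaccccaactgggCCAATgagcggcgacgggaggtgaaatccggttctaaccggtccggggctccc

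Of all 32851 windows, 37.4% held at least 1 CCAAT, 11.7% at least 2, 3.37% at least 3 and 1.06% at least 4, while 17.9% held at least 1 TTTGAA and 6.95% held both motifs. At least 2 TTTGAA were found in 2.31% of windows. Windows of Hmgn1, Hmgn5 and Hmg20b each held 2 CCAAT and no TTTGAA. The second Hmgb1 window, at a start further downstream (chr5:149051567-149051866, minus strand), held neither motif. These matches describe the letters of the windows and do not show that a factor binds there.

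Most of the 8 genes were among the more abundant transcripts of the tissue. Per kb of exonic length, the level in controls was 175 ± 27.9 CPM per kb (SD, n = 5) for Hmgn2, 144 ± 16.5 for Hmgb1, 136 ± 16.5 for Hmgn1, 119 ± 16.0 for Hmgb3 and 73.9 ± 19.2 for Hmgb2. These levels ranked 215, 260, 269, 306 and 518 among the 16896 tested genes with an exonic length. Hmgn3 stood at 28.4 ± 2.62, Hmg20b at 8.34 ± 1.15 and Hmgn5 at 5.52 ± 3.56 CPM per kb, with ranks of 1668, 5673 and 7283. The top 4 levels had overlapping ranges, although in each control sample the order Hmgn2, Hmgb1, Hmgn1, Hmgb3 was kept. Ranges of neighbours were apart between Hmgb3 and Hmgb2, between Hmgb2 and Hmgn3 and between Hmgn3 and Hmg20b, whereas Hmg20b was above Hmgn5 in 4 of 5 controls.

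In Dot1l-cKO the order per kb was the same but for Hmgb1 and Hmgn1. Hmgn2 was at 146 ± 9.03 CPM per kb, Hmgn1 at 131 ± 14.8, Hmgb1 at 124 ± 16.1, Hmgb3 at 97.5 ± 17 and Hmgb2 at 62.1 ± 11.2. Hmgn1 was above Hmgb1 in 5 of 5 Dot1l-cKO samples, and Hmgb1 above Hmgn1 in 5 of 5 controls, with overlapping ranges in both groups. Which gene is above rests on the exonic lengths used, 5023 bp for Hmgb1 and 3221 bp for Hmgn1. A difference between the groups in the ratio of the 2 genes does not depend on these lengths. Their longest annotated mRNAs are 2838 and 2174 bases. This pair was picked because its order changed, and the share of gene pairs that split this way was not computed. The ratio of these 2 genes was not tested. The lower levels were 27.8 ± 2.10 for Hmgn3, 7.93 ± 0.974 for Hmg20b and 3.47 ± 1.33 for Hmgn5. The ranges of these 3 genes were apart from each other and from Hmgb2.

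**Figure D1:**
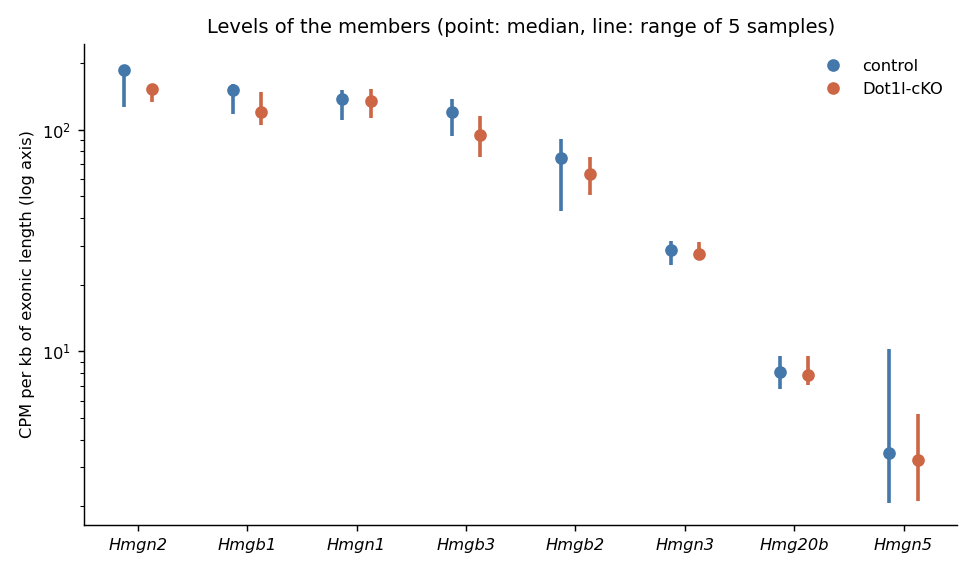
Level of each member in CPM per kb of exonic length (log axis) in control and Dot1l-cKO samples; points are medians and lines span the lowest to the highest of 5 samples. Hmgn2 had the highest level in both groups and Hmgn5 the lowest, with the widest range among controls, 2.07 to 10.3 CPM per kb.

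A limit on these levels, their order and the family shares below is the length used. The union of exons exceeds the longest annotated mRNA by unequal amounts. These 2 lengths are 3060 and 1265 bases for Hmgn2, 3149 and 1621 for Hmg20b, and 1934 and 1934 for Hmgn5. Another limit is sequence shared with gene copies, which are numerous for HMG genes. Of all stretches of 100 bases in the longest annotated mRNA, 47.0% occurred exactly in transcripts of other annotated genes for Hmgn2, 28.3% for Hmgb1, 20.0% for Hmgb2, 18.3% for Hmgb3, 13.3% for Hmgn5 and 2.46% for Hmgn1. None did for Hmgn3 and Hmg20b. By its default, the counting tool leaves out reads that map to several places, so levels of the members with shared stretches may be understated. Reads credited to the pseudogene rows that carry a member's name were few. They were 97 to 200 counts per sample over 12 rows for Hmgb1, against 31948 to 50396 for Hmgb1 itself, and 11 to 25 over 2 rows for Hmgn2. The same default leaves reads that map to several places out of these rows too. Stretches of 100 bases were shared with 50 other genes for Hmgb1 and 6 for Hmgn2, and copies under other names were not counted here. Hmgb1 also overlaps the oppositely oriented Uspl1 (3187 to 4430 counts), from which stranded counting separated it.

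All 8 genes passed the filter on low counts, and all 8 had a negative log2 fold change in Dot1l-cKO against control. The median over the 8 genes was -0.23, against -0.0056 over all 17039 genes tested, of which 51.2% were negative. None of the 8 was called with an adjusted p-value under 0.05 in edgeR, where 7.11% of all tested genes were called, 1.44% as lower and 5.67% as higher. The unadjusted p was under 0.05 for 1 member, Hmgn2, against 20.6% of all tested genes. DESeq2 and limma likewise called 0 members, where they called 2.33% of 28410 and 1.91% of 17039 tested genes lower. DESeq2 was run without the filter on low counts, so its shares are over a wider set of genes. Each gave 3 members an unadjusted p under 0.05, against 14.9% of all genes tested in DESeq2 and 21.8% in limma. With the replicate number as a block, 1 member was called lower, Hmgb3, against 2.91% of all tested genes, and with the header number described above as a block it was again Hmgb3, against 3.5%. No member had all Dot1l-cKO samples below all controls, which held for 2.17% of the tested genes, and none had all of them above (6.17%). In same-numbered pairs, 7 of the 8 members were lower in Dot1l-cKO in at least 4 of 5 pairs, as were 31.1% of tested genes. Negative values were also frequent among abundant genes, since 67.0% of the 3797 genes at a log2 CPM of 6 or more on average were negative, with a median of -0.06. Hmgn3, Hmg20b and Hmgn5 averaged below 6. In bulk tissue, fewer cells of a type and less RNA per cell cannot be told apart for any of these differences.

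**Figure D2:**
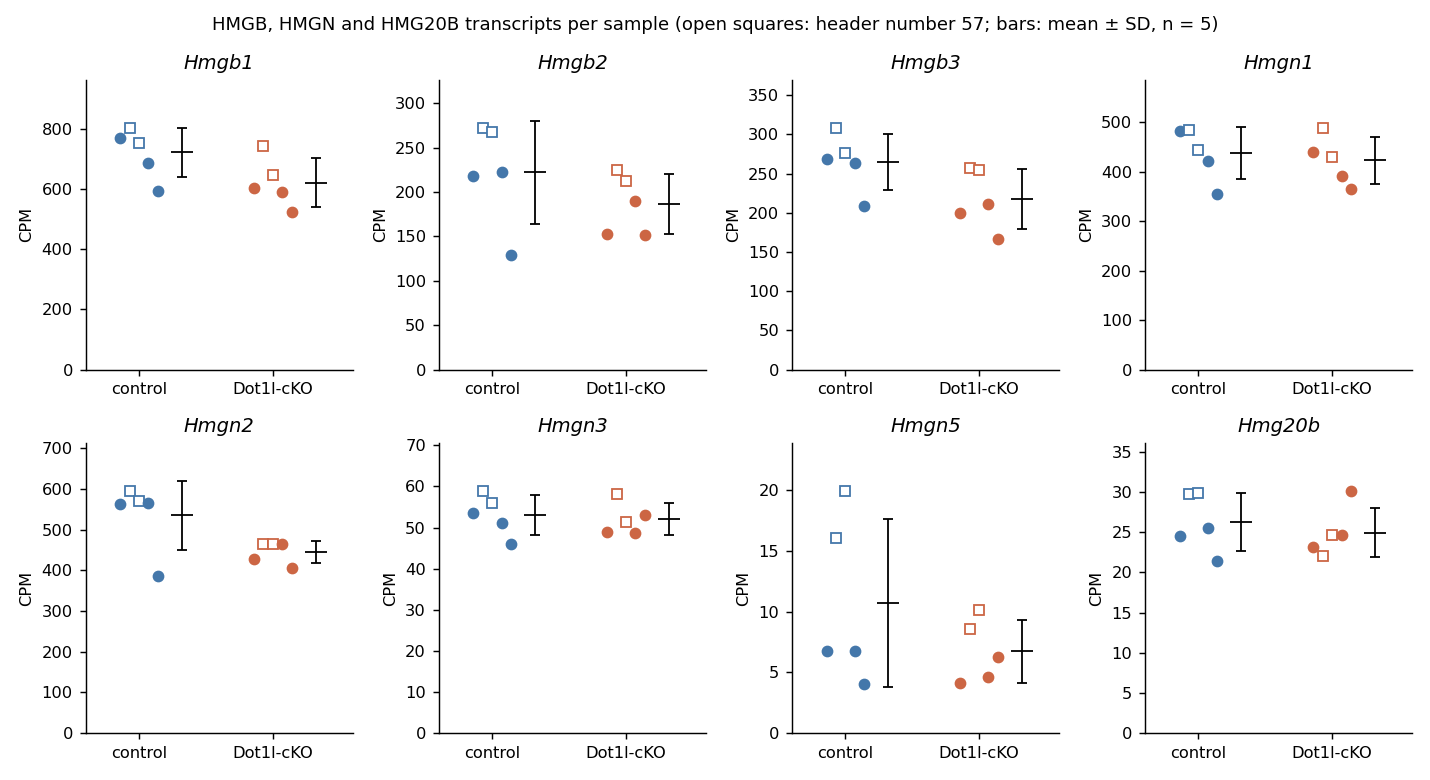
CPM of each member in every sample, from 0 on a linear axis; open squares are the samples with header number 57, filled circles the others, and the bars beside them give mean ± SD of 5 samples per group. The groups overlapped for all 8 members, and control replicate 5 was the lowest control in each panel (595 CPM for Hmgb1, 385 for Hmgn2).

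Hmgb1 encodes the most widely expressed HMGB protein, a DNA chaperone in the nucleus and a danger signal when released from cells (GRCm38 chr5:149046702-149184489, minus strand). The controls, in the order of their replicate numbers as in all lists of values below, had 772, 804, 754, 689 and 595 CPM. The Dot1l-cKO samples had 603, 745, 648, 590 and 526 CPM. Only 2 Dot1l-cKO samples, replicates 4 and 5, lay below the lowest control, and the Dot1l-cKO sample was the lower of the 2 in all 5 same-numbered pairs, as for 11.6% of tested genes. The mean was 723 ± 82.8 CPM in controls and 622 ± 81.0 in Dot1l-cKO, a log2 fold change of -0.22 (SE 0.11, 95% interval -0.45 to 0.02) with an adjusted p of 0.287 in edgeR. With the replicate block the value was -0.22 (SE 0.06, adjusted p = 0.0582), and it was -0.14 within header number 57 and -0.26 within the others.

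Hmgb2 encodes an HMGB protein typical of proliferating cells and a component of the SET complex (chr8:57511907-57515999, plus strand). Controls had 218, 272, 268, 223 and 129 CPM. Dot1l-cKO samples had 153, 225, 212, 190 and 152 CPM. The highest controls were those with header number 57 and the lowest of all 10 samples was control replicate 5, so that no Dot1l-cKO sample lay below the controls. The means of 222 ± 57.5 and 187 ± 33.5 CPM gave a log2 fold change of -0.25 (SE 0.19, 95% interval -0.67 to 0.17, adjusted p = 0.514, edgeR). The interval of the fold, 0.63 to 1.12, spans both lower and slightly higher levels.

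Hmgb3, the X-linked HMGB gene, is known for expression in stem and progenitor cells (chrX:71555918-71560676, plus strand). Its values were 269, 308, 276, 264 and 209 CPM in controls. They were 200, 257, 254, 211 and 167 CPM in Dot1l-cKO. Dot1l-cKO replicates 1 and 5 were below every control, and all 5 Dot1l-cKO samples were below the control median, as for Hmgb1 and Hmgn2. Like Hmgb1, Hmgb3 was lower in all 5 same-numbered pairs, which held for 11.6% of tested genes. The mean of 265 ± 35.7 CPM in controls compared with 218 ± 38.0 in Dot1l-cKO, which is 82.2% of the control mean. The log2 fold change was -0.28 (SE 0.13, 95% interval -0.57 to 0.01) and was not called (adjusted p = 0.256, edgeR). With the replicate number as a block the log2 fold change was -0.29 (SE 0.06, 95% interval -0.43 to -0.15) and the adjusted p 0.0287, and with the header number as a block they were -0.29 and 0.0196. The value was -0.17 within the samples of header number 57 and -0.37 within the others.

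The shares of the 3 HMGB genes differed little between the groups. Of the summed HMGB level per kb, Hmgb1 made up 43.0 ± 2.31% in controls and 43.8 ± 2.02% in Dot1l-cKO, Hmgb3 35.3 ± 1.02 and 34.3 ± 1.34%, and Hmgb2 21.6 ± 2.99 and 21.9 ± 1.35%. Within-sample log2 ratios between HMGB genes differed between the groups by 0.00402 for Hmgb1 to Hmgb2 (SE 0.14), 0.07 for Hmgb1 to Hmgb3 (SE 0.06) and 0.07 for Hmgb2 to Hmgb3 (SE 0.12). None of these differences exceeded the spread between samples, with p of 0.968, 0.27 and 0.675 in an exact two-sided permutation test (n = 5 per group) and 0.968, 0.628 and 0.868 after adjustment over the 9 ratios tested. The smallest p this test can give is 0.00794.

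Hmgn1 encodes a nucleosome-binding protein found in nearly all cells (chr16:96120618-96127729, minus strand). Control values were 482, 485, 444, 422 and 355 CPM. Dot1l-cKO values were 440, 488, 430, 390 and 364 CPM. The groups overlapped almost completely, and the highest sample of all was a Dot1l-cKO sample. The log2 fold change was -0.05 (SE 0.10, 95% interval -0.28 to 0.18, adjusted p = 0.838, edgeR), which bounds the level in Dot1l-cKO to between 0.82 and 1.13 of the control level.

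Hmgn2, the most abundant member per kb and the closest relative of Hmgn1, had the smallest adjusted p-value (chr4:133964738-133968650, minus strand). The 5 controls had 562, 594, 571, 566 and 385 CPM. The 5 Dot1l-cKO samples had 427, 465, 465, 465 and 406 CPM. The first 4 controls lay above all Dot1l-cKO samples, but control replicate 5 lay below them all. The means of 535 ± 85.2 and 446 ± 27.6 CPM gave a log2 fold change of -0.26 (SE 0.11, 95% interval -0.51 to -0.02, adjusted p = 0.204, edgeR). Without control replicate 5 the log2 fold change was -0.36 (SE 0.07) and the adjusted p 0.0102, so this single library decided the call, and that fit called 1.99% of tested genes lower. The value was -0.31 within header number 57, -0.23 within the others, and -0.25 with the replicate block (adjusted p = 0.0927).

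Hmgn3, an HMGN gene with brain and endocrine expression, was the steadiest member (chr9:83109948-83146685, minus strand). Controls stood at 53.5, 58.8, 55.9, 51 and 45.9 CPM. Dot1l-cKO samples stood at 48.8, 58.2, 51.4, 48.7 and 53.1 CPM. Each Dot1l-cKO sample fell inside the range of the controls. The log2 fold change of -0.03 (SE 0.08, adjusted p = 0.893, edgeR) had a 95% interval of -0.20 to 0.15, the narrowest of the 8.

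Hmgn5, an X-linked gene whose protein has a long acidic tail, was the least abundant and the most variable member (chrX:109004534-109013404, minus strand). Levels were 6.73, 16.1, 19.9, 6.73 and 4.0 CPM in controls. The Dot1l-cKO samples had 4.09, 8.58, 10.1, 4.58 and 6.25 CPM. The samples of header number 57 were the highest in both groups, with means of 18.0 against 5.82 CPM in the other controls and 9.33 against 4.98 CPM in the other Dot1l-cKO samples. Its log2 fold change of -0.67 was the largest of the 8 but had a 95% interval from -1.60 to 0.26 (SE 0.42, adjusted p = 0.426, edgeR). It was -0.93 within header number 57 and -0.23 within the others, an interaction of -0.72 (SE 0.36) with an adjusted p of 0.728, and -0.52 with the replicate block (adjusted p = 0.197). Leaving out a single sample moved it to between -0.88 (without control replicate 5) and -0.32 (without control replicate 3).

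Within the HMGN family, Hmgn2 had 50.6 ± 1.97% of the summed level per kb in controls and 47.3 ± 2.15% in Dot1l-cKO. The share of Hmgn1 was 39.5 ± 1.88 and 42.5 ± 2.20%, that of Hmgn3 8.29 ± 0.623 and 9.06 ± 0.707%, and that of Hmgn5 1.54 ± 0.896 and 1.12 ± 0.386%. The log2 ratio of Hmgn2 to Hmgn3 was lower in Dot1l-cKO by 0.23 (difference -0.23, SE 0.09) and in all 5 same-numbered pairs, with p = 0.0476 in the exact permutation test and 0.25 after adjustment over 9 ratios. The ratio of Hmgn1 to Hmgn2 was 0.20 higher (SE 0.08, exact p = 0.0556, adjusted 0.25), in both sets of samples (0.31 and 0.13). Neither passed the adjusted threshold. Ratios with Hmgn5 differed by 0.25 to 0.48 with SE of 0.43 to 0.45, and that of Hmgn1 to Hmgn3 by -0.02 (SE 0.08).

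Hmg20b lies on chr10:81346048-81350480, minus strand. Control levels were 24.6, 29.8, 29.9, 25.5 and 21.4 CPM. Levels in Dot1l-cKO were 23.2, 22.1, 24.7, 24.7 and 30.1 CPM. The highest sample was Dot1l-cKO replicate 5 and the lowest control replicate 5, the same-numbered pair. The log2 fold change was -0.07 (SE 0.11, 95% interval -0.32 to 0.18, adjusted p = 0.775, edgeR). It was negative within header number 57 (-0.33) and positive within the others (0.12), and this interaction of -0.47 (SE 0.18) had an adjusted p of 0.728 in edgeR, where 0 of 17039 genes (0.0%) passed. Hmg20b was the 1 member with an unadjusted p under 0.05 for this interaction, against 6.29% of all tested genes.

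**Figure D3:**
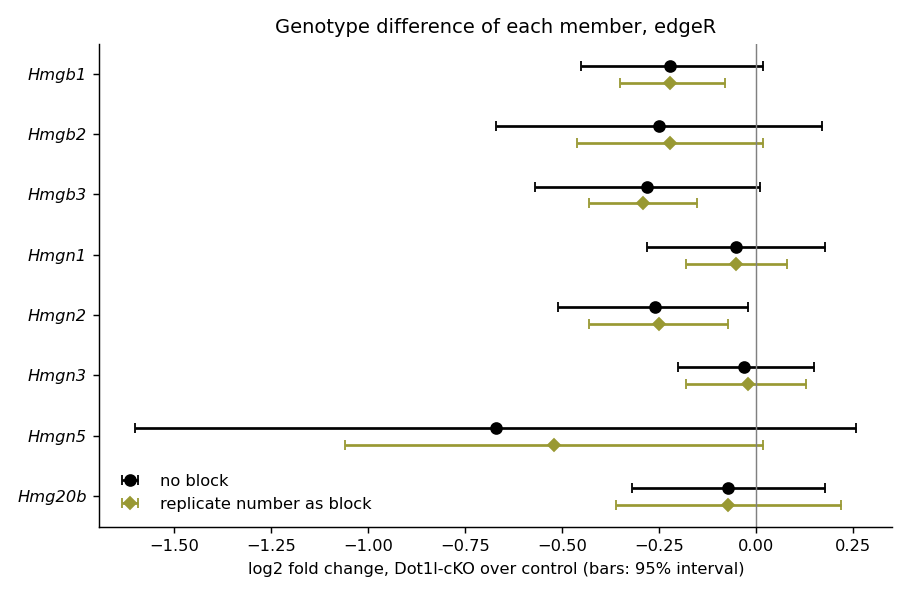
Log2 fold change of each member, Dot1l-cKO over control, with 95% intervals from edgeR without a block (black circles) and with the replicate number as a block (olive diamonds). All 8 points lie left of 0 in both fits, and of the intervals without a block only that of Hmgn2 (-0.51 to -0.02) does not reach 0.

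Most members deviated in the same direction in a given sample. Control replicate 5 was the lowest control for all 8 members, while it was the lowest control for 26.2% of tested genes. Control replicate 2 was the highest for 6 of them, all but Hmgn5 and Hmg20b, against 20.3% of tested genes. Dot1l-cKO replicate 5 was the lowest of its group for 5, namely Hmgb1, Hmgb2, Hmgb3, Hmgn1 and Hmgn2 (22.0% of tested genes), and the highest for Hmg20b. Dot1l-cKO replicate 2 was the highest of its group for 5, namely Hmgb1, Hmgb2, Hmgb3, Hmgn1 and Hmgn3 (26.4% of tested genes), and the lowest for Hmg20b. Pearson correlations between members were taken over the 10 samples, on deviations of log2 CPM from the group mean. The highest were 0.96 between Hmgb1 and Hmgn1, 0.94 between Hmgb2 and Hmgn2, and 0.93 between Hmgb1 and Hmgb3. Among HMGB and HMGN pairs the lowest was 0.54, between Hmgn1 and Hmgn5. The usual correlation between pairs of other genes is not given here. Correlations of Hmg20b were lower with Hmgb1, Hmgb3 and Hmgn1 (0.03 to 0.04), and were 0.43 with Hmgb2, 0.46 with Hmgn2, 0.52 with Hmgn3 and 0.64 with Hmgn5. The samples share their header numbers. Averaged over both groups, samples of header number 57 were higher by 0.16 to 0.33 for Hmgn3, Hmgn2, Hmgn1, Hmgb1 and Hmgb3, 0.48 for Hmgb2 and 1.29 for Hmgn5 on the log2 scale. For Hmg20b they were higher in controls (29.8 against 23.9 CPM) and lower in Dot1l-cKO (23.4 against 26.0 CPM).

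**Figure D4:**
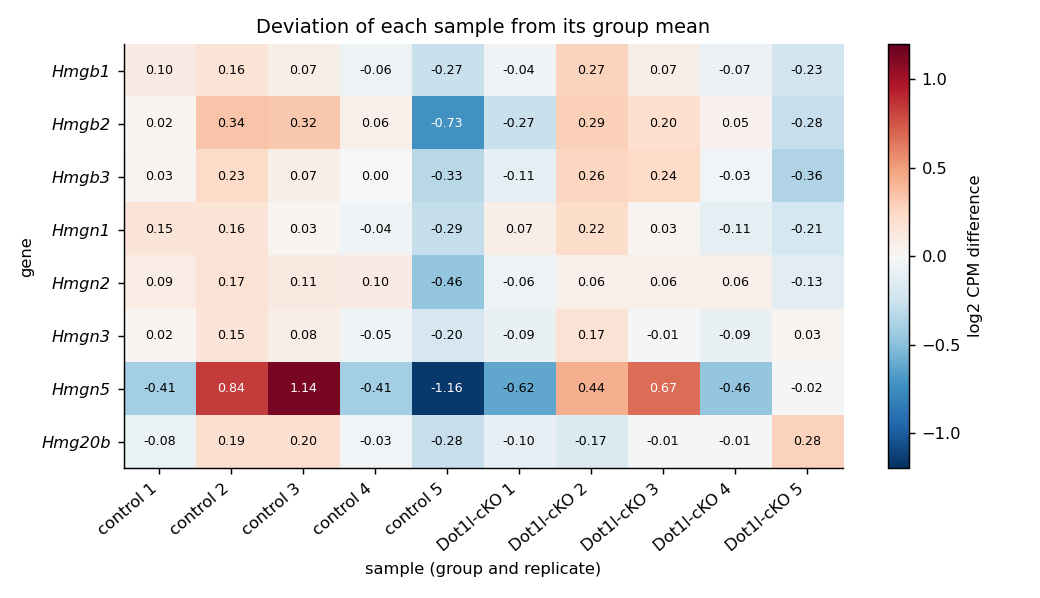
Deviation of each sample from the mean of its group in log2 CPM, for the 8 members (rows) and 10 samples (columns), with the value in each cell. Control replicate 5 is negative for all 8 genes, from -0.20 for Hmgn3 to -1.16 for Hmgn5.

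Genes whose deviations were most like those of each member were sought among 10372 tested genes whose log2 CPM averaged at least 3, over the same 10 samples. For Hmgb1 these were Ccnb1, the mitotic cyclin B1 (r = 0.994), Ska2, a part of the kinetochore (0.988), and Ubr7 (0.988). For Hmgn2 they were the linker histone gene Hist1h1b (0.975), the core histone gene Hist1h2ab (0.974) and Cdca2 (0.971), which acts on mitotic chromosomes. For Hmgb3 they were Mrps18c (0.976), the progenitor gene Sox2 (0.97) and Rfc4 (0.961), a DNA replication clamp loader subunit. For Hmgn5 they were Rcc2 (0.988), the histone chaperone gene Chaf1a (0.987) and Clint1 (0.985), and for Hmgb2 they were Rbmxl1 (0.987), Snrpf (0.986) and Sae1 (0.981). Hmgn1 was nearest to Fkbp3 (0.983), Hmmr (0.981) and Zfp472 (0.98), Hmgn3 to E130114P18Rik (0.969), Cep135 (0.964) and Arhgap19 (0.941), and Hmg20b to 2310033P09Rik (0.947), Cpt1a (0.945) and Emid1 (0.936). Functions are named above for only some of these genes. The deviations were taken from the group means, without regard to header number. With so many genes and only 10 samples these correlations describe the samples and carry no test.

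The G2/M list held 15 genes of mitosis such as Top2a and Mki67. Of all tested genes 51.2% were negative, and of those at a log2 CPM of 6 or more on average 67.0%. Not all of the 15 genes were that abundant. All 15 had a negative log2 fold change, with a median of -0.22, and none was called in edgeR without a block. Plk1, a mitotic kinase, had the most negative value (-0.33, adjusted p = 0.159, edgeR). The summed level was 2279 to 3152 CPM in controls and 2297 to 2645 in Dot1l-cKO, and control replicate 5 had 2279 against at least 2811 in the other controls. The part of dividing cells in the member values was not tested.

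Related chromatin genes were read in the same fit, where 51.2% of all tested genes were negative. Of the genes at a log2 CPM of 6 or more on average, 67.0% were negative. Of the HMGA genes, Hmga2, whose protein marks early neural stem cells, had -0.74 (SE 0.23, adjusted p = 0.0787, edgeR), and Hmga1 had -0.12 (adjusted p = 0.586), neither of them called. Hmgb4 was not tested, with at most 2 counts in any sample. All 12 further genes of HMG-box proteins and the FACT chaperone were negative and none was called, with a median of -0.12. Of these, Wdhd1, a replication fork protein, had -0.28 (adjusted p = 0.0624) and the FACT genes Ssrp1 and Supt16 had -0.08 and -0.17. The paper lists Wdhd1 among the HMG-domain genes it selected for decreased transcription.

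The lists read for the complexes that hold members had no called gene in this fit. In the LSD1-CoREST list of HMG20B, 9 of the 11 genes read here were negative and 0 were called, with a median of -0.16. Kdm1a, the demethylase of the complex, had -0.09 (adjusted p = 0.481, edgeR), the scaffold gene Rcor1 had -0.21 and Gse1 had -0.62 (adjusted p = 0.235). In the list read for the SET complex of HMGB2, all 6 tested genes were negative and 0 called, with a median of -0.27. This list is wider than the complex, since it holds the Anp32a relatives Anp32b (-0.56) and Anp32e (-0.53), its most negative genes. Anp32a had -0.30 (adjusted p = 0.136) and Set -0.24 (adjusted p = 0.359), while Trex1 had 0 counts in every sample.

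The 7 linker histone genes, whose proteins compete with HMGN proteins for nucleosomes, were all negative with a median of -0.17 and none called. Hist1h1b had the most negative value, -0.37 (SE 0.12, adjusted p = 0.0901, edgeR). The receptors through which released HMGB1 signals, Ager, Tlr2, Tlr4 and Cxcr4, held 0 called genes of 4, with -0.17, 0.46, 0.44 and 0.13. The median of these 4 genes was 0.28. The group means of Ager, Tlr2 and Tlr4 were low, from 0.959 to 1.55 CPM. No gene of these related lists was called in the edgeR fit without a block. Their calls under the other settings are not given here.

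**Figure D5:**
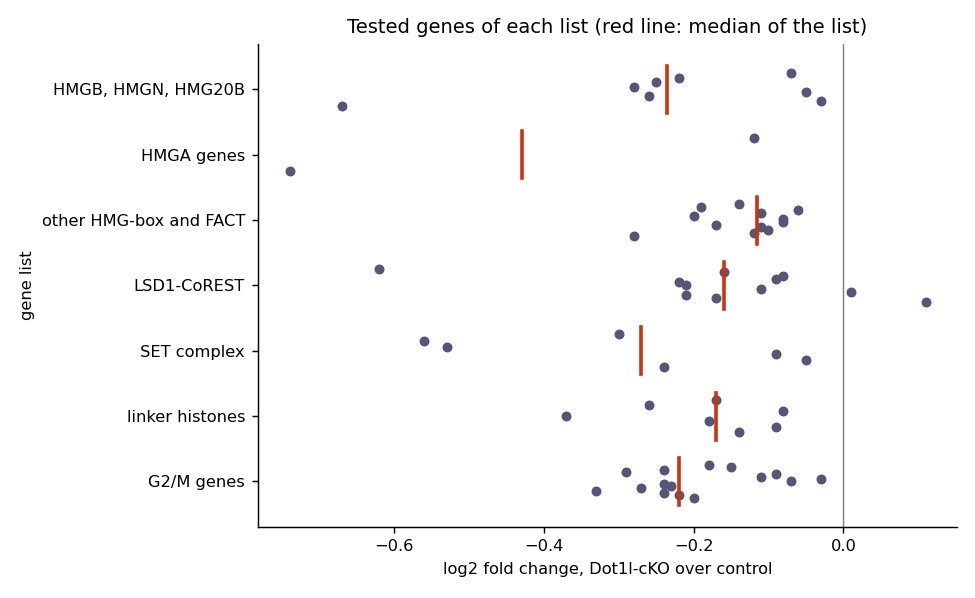
Log2 fold change, Dot1l-cKO over control, of every tested gene in the member list and in 6 related lists, the HMGB1 receptors not plotted; each point is a gene and red lines are list medians. The plotted medians run from -0.43 for the 2 HMGA genes to -0.12 for the other HMG-box genes, and the members' median is -0.23.

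Some markers of the cells in the tissue differed between the groups. Of 9 progenitor genes, 3 were called higher, with Fabp7 (0.62, adjusted p = 0.0122) and Vim (0.53, adjusted p = 0.00451) the largest, and 1 lower, Pax6 (-0.36, adjusted p = 0.0294, edgeR), which was also the 1 called gene of the 5 dorsal telencephalon markers. The summed progenitor level was 2204 to 2751 CPM in controls and 2878 to 3223 in Dot1l-cKO, without overlap. This sum was carried by Vim (919 to 1323 CPM between the group means) and Fabp7 (429 to 660 CPM), while the log2 fold change was below 0 for 6 of the 9 genes and had a median of -0.20. All 7 microglia genes were called higher, at a summed 32.9 to 55.6 CPM in controls and 66.3 to 100.3 in Dot1l-cKO. Of 7 tested ventral interneuron genes, all negative, Lhx6 was called lower (-3.0, adjusted p = 0.00187), and the sum was 54.7 to 280.2 CPM against 5.46 to 81.9. Intermediate progenitor (522 to 846 CPM against 624 to 802), neuron (4141 to 5960 against 4749 to 5752), erythroid (442 to 1955 against 731 to 1739), endothelial (164 to 273 against 144 to 318), meningeal (14.9 to 405 against 20.3 to 377) and choroid plexus (2.66 to 608 against 4.92 to 148) lists held no called gene, and no marker was at 0 in all samples. In control replicate 5, where all 8 members were lowest, the neuron sum was the highest of the controls and the progenitor sum the lowest. The part of these cell types in the member values was not tested.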

How the data were processed

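The titles gave each sample its group and replicate number. Stranded libraries were made from total RNA per the labels. Per the submitters' processing notes and the study's methods, reads were trimmed with Trim Galore 0.2.8, aligned to mm10 with TopHat2 2.0.9 and an Ensembl annotation, and assigned to genes with HTSeq 0.6.0 in reverse-stranded mode. The authors deposited whole-number counts per gene, which were used for all values. They also deposited normalised counts, a signal scaled by DESeq2 1.6.1 size factors, used for an alternative only. Reads carry no molecular identifiers, so counting precision covers counting error only.

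Genes were tested with edgeR 4.0.16 in R 4.3.3 (filterByExpr defaults, TMM, quasi-likelihood test, no covariate), with Benjamini-Hochberg adjustment over all 17039 genes tested and a threshold of 0.05. The study's methods name DESeq2, run here as DESeq2 1.42.0 among the alternatives, beside limma 3.58.1 on log2 of the normalised counts plus 1. CPM use TMM library sizes. Standard errors are the log2 fold change over the square root of F. Levels per kb divide CPM by the union of exons in GENCODE, whose GRCm38 coordinates match mm10. Control samples came from littermates per the study's methods, and p-values measure the spread between these samples. Replicates of a group differed beyond counting noise (lowest chi-square per degree of freedom 30.8), so each counted once. The same-numbered samples of the 2 groups deviated together (correlations 0.23, 0.35, 0.15, 0.60 and 0.13 over genes for numbers 1 to 5). The highest correlation with another number was 0.03, 0.35, 0.45, 0.08 and 0.29, which for numbers 2, 3 and 5 was equal or higher. Since every same-numbered value was over 0.1, the replicate numbers in the titles were taken to pair them. For numbers 2, 3 and 5 these values do not single out the pairs, and numbers 2 and 3 share header number 57. The main test used no block and does not rest on this pairing.

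The members, the gene lists and the tests were chosen with earlier results of these data known. All 8 members are named. A few genes of the lists are not reported here. Other lists are given by counts, naming up to 2 called genes in each direction and genes of the members' complexes, and each member has its 3 most correlated genes. Per-gene list values without a call are descriptions. Sequence windows are from RefSeq. Alternatives left out each sample in turn, changed filter, scaling, test, threshold and block, or added Xist, the marker of female cells, as a covariate. Every script that tested many genes was tested on simulated data.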

Additional observations from a re-analysis of the deposited data

Results flagged for a closer look

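In control samples, Hmgn2 had a sample far from the others. Control replicate 5 was the lowest, and its gap to the next control took 0.873 of the whole range of log2 CPM in the group, above the limit of 0.71 for 5 samples. This was 1 of 34 groups examined, and chance flags about 1 in 20 groups. Control replicate 5 was also the lowest control for the other 7 members. The cause was not tested.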

How the results depend on the processing

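All 8 members kept a negative log2 fold change under most settings. Exceptions were Hmgn1 within header number 57 (0.00319), Hmg20b within the other samples (0.12) and Hmgn3, which ranged from -0.07 to 0.01 with single samples left out and was positive without control replicate 2. Each of these had an adjusted p of 0.658 or more. The number of members called lower was 0 with DESeq2, DESeq2 size factors, limma, both other filters, the stricter threshold, Xist, mitochondrial genes removed and pseudogene rows added, and 1 with the replicate block (Hmgb3) and with the header number as a block (Hmgb3). It ranged from 0 to 1 when single samples were left out, with Hmgn2 called without control replicate 5. The replicate block changed no other call. No member was called higher under any setting. With single samples left out, the ratio difference of Hmgb1 to Hmgb2 ranged from -0.06 to 0.12, of Hmgb2 to Hmgb3 from -0.03 to 0.13, of Hmgn1 to Hmgn3 from -0.06 to 0.04 and of Hmgn2 to Hmgn5 from -0.01 to 0.43. The cause of these changes was not tested. Over all genes, the calls of lower genes rose from 246 to 495 with the replicate block, 597 with the header block and 663 with DESeq2. The DESeq2 fit tested 28410 genes and the others 17039. With 217 to 1327 counts per sample for Hmgn5 and at least 1225 for the other members, spread between samples and not counting limited the intervals.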
